A study of Mus musculus with 18 samples.

Results

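The circular RNAs (circRNAs) described here are 300 whose signal was found almost wholly outside the fraction bound by an antibody against N6-methyladenosine (m6A), in mouse cerebral cortex after sham surgery and after middle cerebral artery occlusion (MCAO). Their level was the signal of the immunoprecipitated fraction (IP) as a percentage of IP plus the supernatant (Sup). Of 14236 circRNA probes on the array, 9305 were listed in the deposited table and were well above the local background in both fractions on all 9 arrays. After the 300 brightest of these had been left out, 9005 remained, and the 300 with the lowest mean level over the 9 arrays were taken. The members were thus selected on the measured level itself, and their low level is a description of the selection. Each member was measured by 1 probe, and the files do not say whether probes share a host gene.

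The tissue came from C57BL/6J mice aged 10 weeks, with 3 samples in each of 3 groups. In the 3d and 7d groups, the distal middle cerebral artery had been closed permanently, the common carotid arteries on both sides had then been closed for some minutes, and the cortex around the infarct was taken 3 or 7 days later. Sham mice were operated on but had no MCAO. Neither the labels nor the methods say at which day sham cortex was taken or whether animals were pooled. By the labels both fractions of a sample were treated with RNase R, which degrades linear RNA, while the methods say so of the immunoprecipitate only. The fractions were then labeled with Cy5 (IP) and Cy3 (Sup) and hybridized to one array. With 3 arrays in a group, the precision of the values is limited.

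A circRNA is a closed loop formed when the end of a downstream exon is spliced back to an upstream one, and such loops are abundant in the brain, where many arise from genes of the synapse. Proteins of the YTH family read the m6A mark on RNA. FTO and ALKBH5 can take the mark off, and a complex built around METTL3 and METTL14 puts it on. On circRNAs, the mark is known for roles in their export, translation and decay. RNA without the mark is left in the supernatant by the antibody, together with any marked RNA that it fails to catch.

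The files give probe identifiers and no circRNA names or sequences. A name was joined to a probe only where the P value listed by the study under that name, calculated as in its methods, was that of exactly 1 probe changed in the listed direction, which held for 59 of 60 listed entries. These entries named 54 probes, of which 3 were among the 300. The study chose its entries on these same samples, so a change in a named circRNA is not independent evidence of its direction. Because the other members have no names, only a few of them are given by identifier.

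The mean level of the 300 ranged from 1.78% to 9.81%, with a median of 7.23% and the middle of the distribution between 5.79% and 8.46%. The median over the 9305 measurable circRNAs was 34.7%. Single values of the members lay between 1.40% and 17%. On every array, all 300 had more signal in Sup than in IP and lay below the median of the measurable circRNAs. A level below 10% on every array was found for 173 of them, and a level below 5% on every array for 12. The level was low in every group: 285 of the 300 lay below the 10th percentile of the measurable circRNAs on all 9 arrays, the same arrays that chose them.

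On the sham arrays the median level of the 300 was 7.17%, 6.81% and 6.33% in replicates 1, 2 and 3. The 3d arrays had medians of 7.55%, 8.33% and 7.94%, and the 7d arrays 6.20%, 6.28% and 5.83%. All 3d arrays were thus above all sham arrays and all 7d arrays below them, by small steps on a low level. The group means of these medians were 6.77% ± 0.423 (SD, n = 3) on the sham arrays, 7.94% ± 0.390 on the 3d arrays and 6.10% ± 0.242 on the 7d arrays. Over all measurable circRNAs the means were 36.5% ± 4.60, 28.2% ± 3.29 and 38.4% ± 1.45, so that the array medians there were lowest at 3 days.

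**Figure D1:**
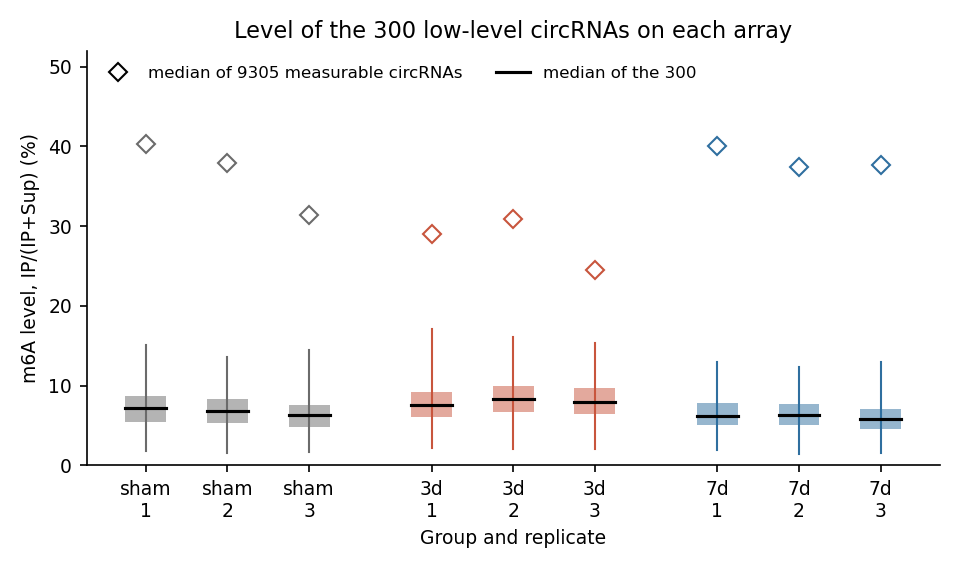
Level (IP as a percentage of IP plus Sup) of the 300 low-level circRNAs on each of the 9 arrays, by group and replicate, with the line at the median, the box from the lower to the upper quartile and the thin line from the lowest to the highest value; open diamonds are medians of 9305 measurable circRNAs. The medians of the 300 stay between 5.83% and 8.33%, while the diamonds lie between 24.5% and 40.3%.

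The low level went with a bright supernatant and an ordinary bound fraction. Relative to the spike-in RNA, the median over the 300 of the mean log2 IP was -4.13, beside -4.32 over the measurable circRNAs. Their median log2 Sup was -0.29, beside -3.20. Ranked among the measurable circRNAs, the typical member stood at percentile 54.4 in IP and 87.6 in Sup. With the measurable circRNAs split by rank into 4 equal classes, 253 members belonged to the highest class of Sup, 47 to the next and 0 to the lower ones, while the classes of IP held 53, 81, 106 and 60 of them from low to high. The selection used both signals, and a circRNA with a low level could enter only if its IP signal was well above background, so these values describe what was selected. Signals of different probes also depend on the probe, and a percentage of signal is not a percentage of molecules.

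In the scans, the median IP intensity of the members was between 58 and 77.75 per array, over a local background between 15 and 22, and the median Sup intensity between 303 and 645. With the normexp background correction of limma at an offset of 50, 235 of the 300 were again among the 300 lowest, and with no correction 265. With any single array left out, between 292 and 296 were taken again. From the 3 arrays of one group alone, 254 were taken again with 3d, 276 with 7d and 273 with sham.

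The members that carried the lowest levels were the probes ASCRP4009384, ASCRP4012521 and ASCRP4003080. The level of ASCRP4009384 was 1.75%, 1.59% and 1.63% on the sham arrays, 2.12%, 2.01% and 2.01% on the 3d arrays, and 1.92%, 1.40% and 1.58% on the 7d arrays. Its 3d arrays were the highest of the 9, and its Sup intensity was between 1104.5 and 2167 against an IP intensity between 67.5 and 93. The level of ASCRP4012521 was 3.00%, 2.78% and 2.18% on the sham arrays, 3.44%, 3.25% and 3.62% on the 3d arrays, and 2.36%, 2.36% and 2.27% on the 7d arrays, so that the 3d arrays again lay above the others. The level of ASCRP4003080 was 2.82%, 3.13% and 2.69% on the sham arrays, 2.73%, 2.55% and 2.58% on the 3d arrays, and 2.98%, 3.24% and 2.77% on the 7d arrays. Here the 3d arrays were not high, and they overlapped with the sham arrays. The next members were ASCRP4005161, ASCRP4013638 and ASCRP4003985, with mean levels of 2.87%, 2.97% and 3.13%.

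At the other end, the last members taken had mean levels of 9.75% (ASCRP4011051), 9.76% (ASCRP4001500) and 9.81% (ASCRP4011435). The first circRNAs not taken had mean levels of 9.82% (ASCRP4014042), 9.83% (ASCRP4005653) and 9.84% (ASCRP4002701). The limit therefore runs through a continuous distribution, and the 9 arrays of those on either side overlap. ASCRP4002701 matched the listed mmu_circRNA_43775 of Maml2, which encodes a mastermind-like coactivator of Notch signaling. Its level was 5.68%, 5.23% and 20.6% on the sham arrays, 12.3%, 18.7% and 10.7% on the 3d arrays, and 3.93%, 5.53% and 5.80% on the 7d arrays. One sham array, replicate 3, thus stood far above the other sham arrays and was the highest of the 9.

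Some bright circRNAs were low in level too, and they were left out with the brightest. Of the 300 left out as brightest, 22 had a mean level below that of the highest member, while their median level was 30.5%. Names were matched for 4 circRNAs of this kind. The circRNA of Dtnb, the gene of the dystrophin-associated protein beta-dystrobrevin, had a mean level of 5.60%. DQ715306 had 8.55%, XLOC_027457 had 9.48% and Rn45s, the precursor of the ribosomal RNA, had 8.77%. With the brightest circRNAs kept in, 280 of the 300 members were taken again.

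On the log2 scale of the level, the members were as steady as other circRNAs, but they were less steady in total signal. The spread of the ratio of IP to Sup was not compared. Within groups, the median SD of the log2 level was 0.20 for the 300 and 0.21 for the measurable circRNAs. The median SD of log2 expression, where expression is IP plus Sup, was 0.40 for the 300 and 0.23 for the measurable circRNAs. The smallest SD of log2 level over the 9 arrays was that of ASCRP4014183, whose level was 9.02%, 9.19% and 9.92% on the sham arrays, 9.99%, 9.23% and 9.87% on the 3d arrays, and 8.51%, 9.90% and 9.25% on the 7d arrays, with all 3 groups overlapping. ASCRP4010333 and ASCRP4002219 followed, each with an SD of 0.08 on the log2 scale. The largest SD were 0.71 for ASCRP4011950, the circRNA of Bmper, 0.66 for ASCRP4009262 and 0.64 for ASCRP4002287.

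The size and the place of the spots were not used by the selection. The median spot extent was 48.6 for the members and 48.1 for the measurable circRNAs. Of the members, 25.7%, 22.0%, 25% and 27.3% lay in 4 equal bands of the array's rows from top to bottom, beside 24.8%, 25.6%, 25.6% and 24.1% of the measurable circRNAs. In 4 equal bands of its columns the shares were 24.7%, 29.3%, 21% and 25% beside 24.7%, 24.6%, 25.3% and 25.4%. The local background, which entered the selection, was 19.2 for the members and 19.3 for the measurable circRNAs in the IP channel, and 16.9 in the Sup channel for both. A mark for a non-uniform or outlying spot on any array was found for 5 members (1.67%) and for 102 measurable circRNAs (1.1%). Sequence features, host genes and circRNA types could not be compared, because the files do not hold them.

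The level was next compared between the groups, to ask whether circRNAs with little bound signal changed after the infarct. The selection used the mean over all arrays and no difference between groups. All 12211 circRNA probes well above background in both fractions on at least 3 arrays were tested together with limma, and all 300 members were among them. Called here means a fold above 1.5 together with an unadjusted P under 0.05. The methods of the study have the same threshold. By the scan headers, the 3d and 7d arrays share a scan date and the sham arrays have another. Arrays with the same scan date were taken to lie on the same slide, which the headers do not state. By the position numbers in the headers, the 3d arrays were in the first row and the 7d arrays in the second. Differences from sham and differences between scans or slides cannot be told apart, nor can 7d vs. 3d and the row. In RNA from whole tissue, fewer cells of a type and less RNA per cell cannot be told apart either.

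At 3 days after MCAO, the median of the low-level circRNAs was above its value in sham cortex, while the median over all circRNAs tested was below. Among the 300, 29 had a higher level, beside 1.37% of all circRNAs tested, and 1 had a lower level, beside 17.2%. After Benjamini-Hochberg adjustment over all circRNAs tested, 22 were higher and 0 lower, beside 0.811% and 14.2% of all. In 21 of the 29 the arrays of the groups did not overlap, as in 66.5% of all circRNAs called higher. The level was above sham in 249 members and below it in 51, with a median log2 change of 0.27 beside -0.32 over all circRNAs tested, a gap of 0.60. The change of single members ran from -0.73 to 1.03.

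The largest of these increases with groups apart were found in circRNAs of Rims1 and Arhgap32, both listed by the study. Rims1 encodes a scaffold of the presynaptic active zone that takes part in the priming of synaptic vesicles, and its exonic circRNA mmu_circRNA_007113 (probe ASCRP4006509) is listed on chromosome 1. Its level was 6.59%, 4.84% and 3.79% on the sham arrays and 11.9%, 9.71% and 7.96% on the 3d arrays, so that every 3d array was above every sham array. On the log2 scale the change was 0.97 (standard error 0.23, adjusted p = 0.022), and the group means were 5.07% ± 1.41 and 9.84% ± 1.95 (SD, n = 3). The exonic circRNA of Arhgap32, mmu_circRNA_43940 (probe ASCRP4000447), is listed on chromosome 9. The level was 4.99%, 5.14% and 6.04% on the sham arrays and 11.2%, 10.7% and 9.48% on the 3d arrays, again with the groups apart. Its change was 0.96 on the log2 scale (standard error 0.16, adjusted p = 0.0157). In the scans, before any scaling, its IP intensity lay between 42 and 69 and overlapped between these groups, while the Sup intensity was 562.5, 514 and 291 on the sham arrays and 211.5, 255 and 181 on the 3d arrays. On the scale of the spike-in RNA its log2 expression overlapped, at 0.36, -0.37 and -1.28 against -1.13, -1.18 and -1.99.

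The circRNA of Bmper (mmu_circRNA_43882, probe ASCRP4011950), listed as sense overlapping on chromosome 9, was the brightest member in total signal. Bmper encodes a secreted protein that binds bone morphogenetic proteins and tunes their signaling. Its level was 5.02%, 2.16% and 2.01% on the sham arrays and 4.64%, 5.70% and 6.97% on the 3d arrays, so that sham replicate 1 lay among the 3d arrays. This was a log2 change of 1.03 ± 0.33 (standard error) and an adjusted p of 0.045, not called by the methods' t-test, with normexp (0.71) or with no background correction (0.70). The next brightest members were ASCRP4013722, ASCRP4011055 and ASCRP4005008, with mean levels of 8.45%, 7.25% and 9.63%. ASCRP4004824, which followed them in brightness, had 6.46%, 5.11% and 4.71% on the sham arrays and 10.3%, 9.58% and 9.08% on the 3d arrays, with the groups apart and a log2 change of 0.84 ± 0.16 (standard error) and an adjusted p of 0.0157. With normexp (0.58) and with no background correction (0.57) it was just under the fold needed. The single called decrease was that of ASCRP4003418, named here after its values were seen. Its level was 7.86%, 13.4% and 13.4% on the sham arrays and 4.39%, 8.01% and 8.82% on the 3d arrays, with overlap at sham replicate 1. Its log2 change of -0.73 (standard error 0.29, adjusted p = 0.0837) turned to 0.031 with normexp, 0.12 with no background correction and 0.015 with all spike-in probes. It was not called without 3d replicate 1 (-0.42), sham replicate 2 (-0.60) or sham replicate 3 (-0.60).

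The size of this difference depended on the scale, and its direction in the median did not. With the arrays centered, each on the median over its circRNAs, 205 members were higher and the median log2 change was 0.75, with within-array loess 209 and 0.75, with all spike-in probes 280 and 0.99, and with normexp 8 and 0.32. Over all circRNAs tested, the median of -0.32 moved to 0.02, 0.01, 0.19 and -0.03 under the same settings. The mean log2 Sup signal of all spike-in probes was -2.91 ± 0.31 on the 3d arrays, -3.52 ± 0.26 on the sham arrays and -3.62 ± 0.11 on the 7d arrays, and the median level of the 50 mRNA probes was 26.7%, 36.5% and 40.2%. With no background correction 60 members were higher, by the methods' t-test 17, of which 0 passed its Benjamini-Hochberg adjustment, and without sham replicate 1 the count was 52.

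**Figure D2:**
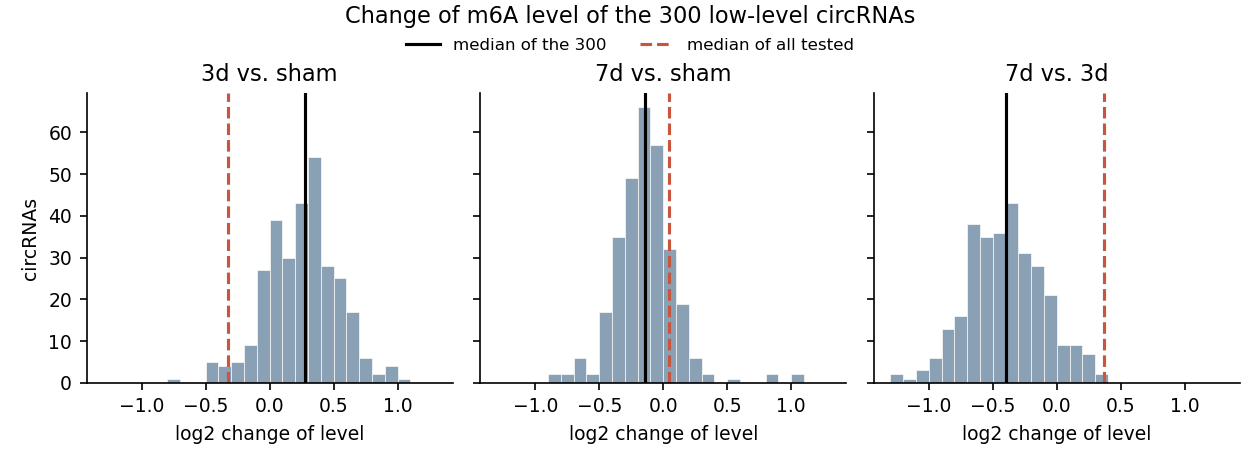
Number of the 300 low-level circRNAs by log2 change of level in each comparison of 3 arrays with 3, with the black line at their median and the dashed line at the median of the 12211 circRNAs tested. Most members lie to the right of the dashed line in 3d vs. sham (0.27 beside -0.32) and to its left in 7d vs. 3d (-0.40 beside 0.37); the dashed line moves with the scale, to 0.02 and -0.05 when arrays are centered on their median.

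At 7 days after MCAO, few of these circRNAs differed in level from sham cortex. In this comparison 4 members had a higher level, beside 1.13% of all circRNAs tested, and 8 a lower level, beside 1.02%. With limma, 0 members and 0 of all circRNAs tested passed after Benjamini-Hochberg adjustment in either direction, while 4 higher and 40 lower members had an unadjusted P under 0.05 at any fold, beside 2.68% and 2.74% of all circRNAs tested. By the methods' t-test 0 and 5 were called, and 0 after adjustment. The median log2 change was -0.14 beside 0.04 over all circRNAs tested, with 64 members above sham and 236 below. The median turned to 0.14 with normexp, where 9 members were higher and 0 lower. With arrays centered on their median, 4 were higher and 17 lower, and with no background correction 5 and 1.

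The largest increases with groups apart were those of ASCRP4004297 and ASCRP4009262. The level of ASCRP4004297 was 8.65%, 4.83% and 3.22% on the sham arrays and 9.41%, 9.26% and 12.9% on the 7d arrays. All 7d arrays were above all sham arrays, by little in the case of sham replicate 1, and the log2 change was 1.02 (standard error 0.34, adjusted p = 0.803). ASCRP4009262 had 6.84%, 3.99% and 2.58% on the sham arrays and 7.91%, 7.27% and 10.1% on the 7d arrays, with a log2 change of 1.01 ± 0.34 (standard error) and an adjusted p of 0.803. Neither was called by the methods' t-test, and neither passed the adjustment.

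Among the decreases, the groups were apart in all 8, and in 75.2% of all circRNAs called lower. The level of ASCRP4012445 was 13.9%, 8.51% and 9.75% on the sham arrays and 4.69%, 6.49% and 6.43% on the 7d arrays, with every 7d array below every sham array. On the log2 scale it changed by -0.85 (standard error 0.21, adjusted p = 0.787). ASCRP4010935 had 11.5%, 10.8% and 12.4% on the sham arrays and 7.74%, 6.71% and 6.57% on the 7d arrays, a log2 change of -0.72 ± 0.15 (standard error) and an adjusted p of 0.714. Both are dim members, with IP intensities between 31 and 41 in these groups, and both rested on the background correction. With normexp the log2 changes were -0.06 and 0.14, and with no correction -0.26 and -0.08. Without 7d replicate 3, 2 members were higher and 2 lower, without sham replicate 3 there were 2 and 5, and without sham replicate 2 there were 2 higher.

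Between 3 and 7 days, many of the low-level circRNAs fell in level, while most circRNAs tested had higher values at 7 days. Among the 300, 85 had a lower level at 7 days than at 3 days, beside 1.97% of all circRNAs tested, and 0 had a higher level, beside 24.0%. With limma, 81 were lower and 0 higher after adjustment, beside 1.51% and 21.3% of all circRNAs tested, and 0 members had an unadjusted P under 0.05 in the upward direction at any fold, beside 44.8% of all circRNAs tested. The methods' t-test gave 78 lower, of which 55 passed its adjustment, and 0 higher. The arrays of the groups did not overlap in 80 of the 85, and in 89.2% of all circRNAs called lower. The median log2 change was -0.40 beside 0.37 over all circRNAs tested, with 273 members lower and 27 higher in value, and this comparison shares its 3d arrays with 3d vs. sham.

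The named circRNAs were among the largest of these decreases. The circRNA of Bmper had 4.64%, 5.70% and 6.97% at 3 days and 2.63%, 2.72% and 2.00% at 7 days, with the groups apart. It fell by 1.23 on the log2 scale (standard error 0.33, adjusted p = 0.0202), and with normexp the log2 change was -0.30 and not called. Its standard error with normexp was 0.41, beside 0.37 in 3d vs. sham, while the main fit gave 0.33 in both. The number of arrays with a value may thus differ in that setting. The circRNA of Arhgap32 had 11.2%, 10.7% and 9.48% at 3 days and 4.0%, 5.40% and 4.15% at 7 days, a log2 change of -1.22 ± 0.16 (standard error) and an adjusted p of 0.0105. The circRNA of Rims1 had 11.9%, 9.71% and 7.96% at 3 days and 4.55%, 5.40% and 3.86% at 7 days, a log2 change of -1.09 ± 0.23 (standard error) and an adjusted p of 0.0117. In these last circRNAs too, every 7d array was below every 3d array. The change of Arhgap32 and of Rims1 passed the threshold in all 12 other processing settings and with any single array left out.

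**Figure D3:**
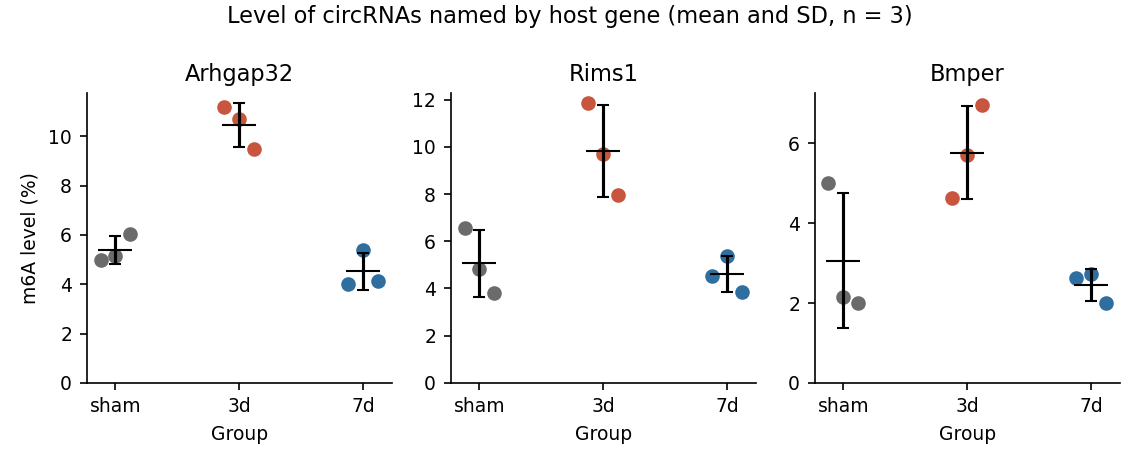
Level (IP as a percentage of IP plus Sup) of the circRNAs of Arhgap32, Rims1 and Bmper in each sample, with 1 point per array, the horizontal line at the mean and bars of 1 SD (n = 3). The 3d arrays lie above all other arrays for Arhgap32 and Rims1, while for Bmper sham replicate 1, at 5.02%, lies within the range of the 3d arrays.

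The direction of this difference was lower under every scale tried, and its size was not stable. The count of lower members was 270 with arrays centered on their median, 269 with within-array loess, 291 with all spike-in probes, 51 with no background correction and 4 with normexp, where 1 was higher. The median log2 change ranged from -1.16 with all spike-in probes to -0.16 with normexp. Over all circRNAs tested the median of 0.37 moved to -0.05 with centering, -0.16 with all spike-in probes, -0.01 with loess and 0.19 with normexp. With only the 6 arrays of this comparison, which share a scan date, 85 members were lower.

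Expression, the sum of IP and Sup, was compared in the same way. In the members this sum is mostly Sup, and since the level has the same sum as its denominator, the measures are not independent of each other. At 3 days after MCAO, 2 members had higher expression than in sham cortex, beside 21.8% of all circRNAs tested, and 13 had lower expression, beside 0.721%. After adjustment 1 was higher and 1 lower, beside 14.2% and 0.418% of all circRNAs tested. The median log2 change of the 300 was -0.20 beside 0.32 over all circRNAs tested, with 66 members above sham and 234 below. The members' median was below 0 under each of the 4 other scales too, from -0.71 with all spike-in probes to -0.16 with normexp, while that of all circRNAs tested moved to 0.01 with arrays centered. The median log2 Sup of the members was 0.08, -0.50 and -0.44 on the sham arrays and -0.12, -0.44 and -1.19 on the 3d arrays, so that 3d replicate 3 stood below all the others.

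The largest decrease with groups apart was that of ASCRP4010067. Its log2 expression was 2.35, 2.31 and 2.09 on the sham arrays and 1.26, 1.31 and 0.94 on the 3d arrays, with the groups wide apart. It fell by 1.08 on the log2 scale (standard error 0.19, adjusted p = 0.0251). Its level rose from 6.22% ± 0.715 to 9.84% ± 0.426 (SD, n = 3), a log2 change of 0.67 (adjusted p = 0.0272) that was 0.51 with normexp and 0.47 with no background correction, where it was not called. ASCRP4009185 had 2.07, 1.30 and 1.44 on the sham arrays and 1.25, 1.01 and 0.22 on the 3d arrays, with a change of -0.78 (standard error 0.30, adjusted p = 0.0881) that was not called without 3d replicate 3 (-0.47), without sham replicate 1 (-0.54), with normexp (-0.56) or by the methods' t-test. The circRNA of Rims1 was also called, at 1.93, 1.40 and 1.81 on the sham arrays and 1.34, 1.23 and 0.31 on the 3d arrays. Its change of -0.75 (standard error 0.28, adjusted p = 0.0782) was not called without 3d replicate 3 (-0.43), sham replicate 1 (-0.65) or sham replicate 3 (-0.71), nor with normexp (-0.51), with no background correction (-0.55) or by the methods' t-test.

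The only called increase with groups apart was that of ASCRP4003353, whose log2 expression was 0.49, 0.13 and 0.76 on the sham arrays and 1.35, 1.15 and 1.37 on the 3d arrays. Every 3d array was above every sham array, and the log2 change was 0.83 (standard error 0.21, adjusted p = 0.035), though 0.51 with arrays centered and 0.33 with all spike-in probes, where it was not called. ASCRP4008177, named after its values were seen, had -0.26, -0.47 and 0.50 on the sham arrays and 0.71, 0.44 and 0.70 on the 3d arrays, which overlap at sham replicate 3. The log2 change of 0.69 (standard error 0.25, adjusted p = 0.0768) was no longer called without 3d replicate 1 (0.64), sham replicate 1 (0.60) or sham replicate 2 (0.49), nor with arrays centered (0.38), with all spike-in probes (0.18) or by the methods' t-test.

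The balance of calls moved with the scale, from 2 higher and 13 lower to 0 and 99 with arrays centered, 0 and 64 with all spike-in probes, and 5 and 7 with normexp. It rested on single arrays as well. Without 3d replicate 3 there were 6 higher and 1 lower, without 3d replicate 1 the counts were 1 and 44, without sham replicate 1 the lower count was 3, without sham replicate 2 the higher count was 1, without sham replicate 3 there were 8 and 20, and without 7d replicate 2, which enters only the estimate of spread, 4 were higher.

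At 7 days after MCAO, most members had higher expression values than in sham cortex. Expression was higher in 28 members, beside 5.79% of all circRNAs tested, and lower in 11, beside 8.37%. After adjustment with limma 0 were higher and 4 lower, beside 0.295% and 0.966% of all circRNAs tested. At any fold, 38 and 13 had an unadjusted P under 0.05, beside 11% and 15.5% of all circRNAs tested. The methods' t-test called 17 and 7, and 0 after adjustment. The median log2 change was 0.34 beside -0.01 over all circRNAs tested, with 258 members above sham and 42 below. The arrays as a whole overlapped, with a median log2 Sup of the members of -0.21, -0.05 and 0.23 on the 7d arrays and of 0.08 on sham replicate 1. The SD between replicates of their median log2 expression was 0.38, pooled within the sham, 3d and 7d groups. For their median log2 Sup, the SD was 0.32 on the sham arrays and 0.22 on the 7d arrays, beside 0.55 on the 3d arrays. The median change lay between 0.22 and 0.59 under the 4 other scales, and that of all circRNAs tested was 0.23 with normexp.

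The largest increases were those of ASCRP4012449 and ASCRP4011128. The log2 expression of ASCRP4012449 was 1.45, 1.16 and 0.11 on the sham arrays and 1.77, 1.57 and 2.46 on the 7d arrays. The groups were apart, with sham replicate 3 the lowest and 7d replicate 3 the highest of the 6 arrays. This log2 change of 1.03 (standard error 0.45, adjusted p = 0.174) was not called without 7d replicate 1 (1.11), 7d replicate 3 (0.77) or sham replicate 3 (0.63). It was not called either with normexp (0.52), with no background correction (0.65), with all spike-in probes (1.13) or by the methods' t-test. ASCRP4011128 had -0.24, -0.35 and -0.76 on the sham arrays and 0.04, 0.29 and 1.35 on the 7d arrays, with the groups apart and a log2 change of 1.01 ± 0.33 (standard error) and an adjusted p of 0.1. It was called with any single array left out, and not by the methods' t-test.

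The decreases were fewer and larger. ASCRP4002387 had a log2 expression of 1.45, 1.25 and 2.24 on the sham arrays and -0.11, -0.29 and -1.71 on the 7d arrays, a log2 change of -2.35 ± 0.46 (standard error) and an adjusted p of 0.0481. ASCRP4009262 had 1.65, 1.56 and 2.40 on the sham arrays and 0.02, 0.28 and -1.31 on the 7d arrays, a log2 change of -2.21 ± 0.45 (standard error) and an adjusted p of 0.0481. In both, all 7d arrays were below all sham arrays, sham replicate 3 was the highest and 7d replicate 3 the lowest of the 6. Both passed the fold and the unadjusted P in each of the 11 other processing settings and with any single array left out. The circRNA of Bmper had 3.96, 4.03 and 4.46 on the sham arrays and 2.75, 2.76 and 1.62 on the 7d arrays, a log2 change of -1.77 ± 0.37 (standard error) and an adjusted p of 0.0506. It too was lower on all 7d arrays.

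The count of higher members in 7d vs. sham rested on single arrays and on the scale. It was 4 without 7d replicate 3, 14 without 7d replicate 2, 47 without 7d replicate 1, 75 without sham replicate 1, 18 without sham replicate 2, 7 without sham replicate 3 and 45 without 3d replicate 3. It was 4 with normexp and 8 with all spike-in probes, where 11 and 10 members were lower, 11 with no background correction, where 11 were lower, and 97 with quantile normalization, where 9 were lower.

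The largest counts in expression were those between 3 and 7 days. Expression was higher at 7 days in 127 members, beside 2.15% of all circRNAs tested, and lower in 16, beside 25.5%. After adjustment 50 were higher and 12 lower, beside 0.925% and 21.9% of all circRNAs tested. The arrays did not overlap in 99 of the higher and 15 of the lower members, and in 80.2% and 96.6% of all circRNAs called higher and lower. The median log2 change was 0.58 beside -0.31 over all circRNAs tested, with 265 members higher and 35 lower in value. The median log2 Sup of 3d replicate 1, -0.12, lay within the range of the 7d arrays, 3d replicate 3 stood apart at -1.19, and without that array 35 members were called higher. Under the 4 other scales the median change lay between 0.40 and 1.18, while that of all circRNAs tested moved to 0.07 with normexp.

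The circRNA of Arhgap32 had the largest increase with groups apart. Its log2 expression was -1.13, -1.18 and -1.99 at 3 days and -0.11, -0.23 and 0.57 at 7 days, a log2 change of 1.51 ± 0.40 (standard error) and an adjusted p of 0.0211, and on the sham arrays it was 0.36, -0.37 and -1.28, which spanned both. It passed the threshold in each of the 11 other processing settings and with any single array left out. ASCRP4012449 followed, with 1.18, 0.72 and -0.44 at 3 days, 1.77, 1.57 and 2.46 at 7 days and a log2 change of 1.45 ± 0.45 (standard error) and an adjusted p of 0.0371, not called by the methods' t-test. The largest decreases were those of ASCRP4005535, at 2.32, 1.90 and 1.74 against -0.04, 0.26 and -1.54, and ASCRP4001381, at 2.93, 3.06 and 3.03 against 1.36, 1.43 and 0.21. Their log2 changes were -2.42 (standard error 0.52, adjusted p = 0.00957) and -2.01 (standard error 0.37, adjusted p = 0.00696), and in both every 7d array was below every 3d array.

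Among the higher members, the count was 35 without 3d replicate 3, 52 without 7d replicate 3 and 78 without 7d replicate 2. It was 31 by the methods' t-test, of which 1 passed its adjustment. With normexp 46 members were higher and 22 lower, with arrays centered 230 and 10, and with all spike-in probes 236 and 4.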

How the data were processed

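Per the file headers, the authors' intensity values came from version 11.0.1.1 of the Agilent Feature Extraction software, which gave a median pixel intensity, a local background, marks and a background-subtracted, dye-normalized signal for each spot in both channels. The files of a sample's IP and Sup records were identical, and each held both channels of its array. The authors' log2 table is that signal less one constant for each channel of an array. Taking the mean over 10 of 102 spike-in probes for it gave every listed value to within 5.57e-10, so the scale is relative to these probes and was used throughout. All sample columns were used.

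Level was IP/(IP+Sup) and expression IP+Sup. With R 4.3.3 and limma 3.58.1, the log2 values of 12211 circRNA probes on all 9 arrays were fitted together (lmFit and eBayes, two-sided). Alternatives were normexp with an offset of 50 or no background correction on the median pixel intensity, arrays centered on their median, all spike-in probes, within-array loess (quantile normalization for expression), the deposited table, other filters, the methods' t-test, only the 6 arrays compared, log2 of IP over Sup, the replicate number as a block, and each array left out. The methods' t-test was run on the log2 values of level and expression, and not on untransformed values. The median change in expression under each scale was added after seeing the data. The members and lists were chosen with earlier results of these data known.

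Named members were the 6 lowest and 3 highest in level, the 3 circRNAs just outside, the 5 brightest, those with the 3 smallest and 3 largest SD, those with a matched name, and the largest called changes with groups apart, of which only the first 2 per direction are given because the files pair no names with probes. Lists of host genes could not be applied for the same reason. Names were matched through the study's listed P to within 1e-07, by a t-test on untransformed levels, on the listed side past the fold. An earlier match that also used the listed fold was dropped after the results were seen, and the names given here are the same under both. Samples were grouped by their titles, and the descriptions of 7d replicates 2 and 3 and sham replicate 3 carry other replicate numbers. The number of arrays limits the precision.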

Additional observations from a re-analysis of the deposited data

Results flagged for a closer look

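Among the members given by identifier, 11 had fitted level changes from sham of opposite sign at 3 and 7 days, with a 7d vs. 3d difference past the fold and the Benjamini-Hochberg adjustment of limma. They were singled out for that test of the difference between the time points, and not for a test of either change from sham. At 3 days only the changes of Bmper, Rims1, Arhgap32 and ASCRP4010067 passed that adjustment, and the changes at 7 days did not pass it. Both changes share the sham arrays. The log2 change of level from sham was 1.03 at 3 days and -0.20 at 7 days for the circRNA of Bmper (ASCRP4011950). It was 0.97 and -0.12 for that of Rims1 (ASCRP4006509), and 0.96 and -0.26 for that of Arhgap32 (ASCRP4000447). ASCRP4005008 had 0.67 and -0.20, and ASCRP4010067 had 0.67 and -0.028. ASCRP4002287 had 0.52 and -0.65, and ASCRP4011128 had 0.43 and -0.39. For ASCRP4009185 the changes were 0.33 and -0.38, and for ASCRP4012449 they were 0.26 and -0.47. Of the lowest members, ASCRP4013638 had 0.20 and -0.58, and ASCRP4003985 had 0.085 and -0.61. This pattern depended on the setting. With no background correction, 51 members in all were called lower in 7d vs. 3d, against 85 in the main fit. The circRNAs of Bmper (-0.93), Rims1 (-0.77) and Arhgap32 (-1.22) kept the call there. With normexp, which was run with an offset of 50, only 4 members in all were called lower in 7d vs. 3d. At most 4 of these 11 can thus have kept that call, which Rims1 and Arhgap32 kept and Bmper lost. The members' median level change in 7d vs. sham turned from -0.14 to 0.14. The opposite sign was not kept by the named circRNAs with normexp. There, the changes in 3d vs. sham and 7d vs. 3d were 0.71 and -0.30 for Bmper. They were 0.76 and -0.64 for Rims1, and 0.87 and -0.86 for Arhgap32. Each rise at 3 days exceeded the later fall, so the 7d value lay above sham. For Rims1 and Arhgap32 the excess was smaller than the standard error of either change (0.17 and 0.18). With no background correction, the 7d value also lay above sham for Rims1 (0.79 and -0.77), by less than a standard error, and not for Bmper or Arhgap32. Single samples were not tested for standing apart from their groups of 3.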

How the results depend on the processing

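The members' median level change kept its direction in 3d vs. sham and 7d vs. 3d under each of the 4 scales, and turned in 7d vs. sham with normexp. The counts of calls moved widely, and the cause was not tested. The bound signal of the median member is a few times its background, while some members were far brighter in IP. Whether this bears on the counts was not tested. Counts below are higher and lower members, or the single one that moved by over 1.5 times.

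With normexp, the level gave 8 and 0 in 3d vs. sham (29 and 1 as reported), 9 and 0 in 7d vs. sham (4 and 8), and 1 and 4 in 7d vs. 3d (0 and 85), with medians of 0.14 in 7d vs. sham and -0.16 in 7d vs. 3d. Expression gave 5 and 7 in 3d vs. sham (2 and 13), 4 higher in 7d vs. sham (28 and 11) and 46 higher in 7d vs. 3d (127 and 16). With no background correction, the level gave 60 and 0 in 3d vs. sham, 1 lower in 7d vs. sham and 51 lower in 7d vs. 3d, and expression 11 higher in 7d vs. sham.

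With each array centered on its median, the level gave 205 and 0 in 3d vs. sham (median 0.75), 17 lower in 7d vs. sham (median -0.27) and 270 lower in 7d vs. 3d (median -0.99). Expression gave 0 and 99 in 3d vs. sham, and 230 and 10 in 7d vs. 3d. With all spike-in probes, the level gave 280 and 0 in 3d vs. sham (median 0.99) and 291 lower in 7d vs. 3d (median -1.16). Expression gave 0 and 64 in 3d vs. sham, 8 higher in 7d vs. sham, and 236 and 4 in 7d vs. 3d. With within-array loess, the level gave 209 and 0 in 3d vs. sham (median 0.75) and 269 lower in 7d vs. 3d (median -0.95). Quantile normalization of expression gave 97 higher in 7d vs. sham, and 219 and 10 in 7d vs. 3d.

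By the methods' t-test, the level gave 17 and 0 in 3d vs. sham, and 0 and 5 in 7d vs. sham. Expression gave 1 and 1 in 3d vs. sham, 17 and 7 in 7d vs. sham, and 31 and 10 in 7d vs. 3d. With only the 6 arrays compared, 0 members had a lower level in 3d vs. sham. After Benjamini-Hochberg adjustment with limma, 0 had a lower level in 3d vs. sham, and 0 were higher and 0 lower in level in 7d vs. sham. Expression then gave 1 and 1 in 3d vs. sham, 0 and 4 in 7d vs. sham, and 50 higher in 7d vs. 3d.

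With single arrays left out, the higher and lower counts of level were 21 to 52 and 0 to 1 in 3d vs. sham, 2 to 6 and 2 to 12 in 7d vs. sham, and 0 to 0 and 64 to 96 in 7d vs. 3d. Those of expression were 1 to 8 and 1 to 44 in 3d vs. sham, 4 to 75 and 9 to 15 in 7d vs. sham, and 35 to 177 and 11 to 20 in 7d vs. 3d. Between 292 and 296 of the 300 were selected again.

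Samples of the same number share only a number in the labels. For the level, the correlation of their deviations was 0.33, 0.057 and 0.32 in 3d vs. sham, -0.11, -0.067 and -0.032 in 7d vs. sham, and -0.049, 0.064 and 0.027 in 7d vs. 3d. For expression it was 0.42, 0.12 and 0.37 in 3d vs. sham, so that all pairs of this comparison were over 0.1, but -0.35, -0.28 and -0.42 in 7d vs. sham and -0.24, -0.023 and -0.20 in 7d vs. 3d. In 3d vs. sham, 4 of 6 samples correlated best with their own number in level and 4 in expression, in 7d vs. sham 0 and 0, and in 7d vs. 3d 3 and 0. With the replicate number as a block, the counts of level were 29 and 1, 4 and 9, and 0 and 85, and those of expression 2 and 9, 26 and 11, and 112 and 15, each within 1.5 times the reported count. The slide, as taken from the scan date, could not be run as a block for comparisons with sham. Among the changes of identified circRNAs run under each setting, the level of ASCRP4010935 in 7d vs. sham turned to 0.14 with normexp. That of ASCRP4003418 in 3d vs. sham turned to 0.031 with normexp, 0.12 with no background correction and 0.015 with all spike-in probes. By their normexp changes in 3d vs. sham and 7d vs. 3d, the circRNAs of Bmper, Rims1 and Arhgap32 turned in 7d vs. sham too. For Rims1 and Arhgap32 the turned value was smaller than the standard error. That of Rims1 also turned with no background correction, again by less than a standard error.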
